A study of Mus musculus with 41 samples.

Results

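Trimethylation of lysine 4 and of lysine 27 on histone H3 (H3K4me3 and H3K27me3) was compared at gene promoters of proliferating chondrocytes (PC), the dividing cells of embryonic cartilage. Each mark had 3 PC libraries, replicates 1, 2 and 7 for H3K4me3 and replicates 2, 6 and 8 for H3K27me3, out of 30 libraries with a region list and 41 samples in the series. A promoter was taken as 2 kb on each side of a gene end, and a mark was counted there when at least 200 bp of its regions lay in the window in all 3 libraries. Of 20665 autosomal protein-coding genes, 2938 carried both marks at the same end (14.2%), 10281 carried H3K4me3 only (49.8%), 471 carried H3K27me3 only (2.28%) and 6975 carried neither (33.8%).

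The PC had been sorted by flow cytometry from cartilage of E13.5 mice. All 6 libraries share 1 genotype: Tg(Col2a1-cre)1Star, in which the Col2a1 promoter drives a Cre recombinase, and Gt(ROSA)26Sortm1(EYFP)Cos, a yellow fluorescent reporter at Rosa26. Hypertrophic chondrocytes (HC), the enlarged cells that follow in the growth plate, came from E15.5 mice with Tg(Col10a1-cre)1427Vdm and the same reporter, with 2 libraries per mark. HC serve here only as a second look at the PC classes, and cell type, age and transgene cannot be told apart in them. Nothing in the labels says that the libraries of a mark came from separate litters or pools, so a p-value here covers library spread that may be technical.

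As background, H3K4me3 is laid down by trithorax group and related complexes around the starts of active or poised genes, and H3K27me3 by Polycomb repressive complex 2 over genes held silent. Promoters with both are called bivalent, and in embryonic stem cells they belong largely to developmental regulators. In cartilage, Sox9 with Sox5 and Sox6 drives the matrix genes of dividing chondrocytes, and signals such as Ihh and PTHrP time the step to hypertrophy. The libraries were made from pools of cells, so both marks on 1 nucleosome, on the 2 alleles or in different cells cannot be told apart.

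Stretches upstream of the start are given for named genes of the 4 classes. Each is the 250 bases before the start in a RefSeq promoter table (build GRCm38.p6), which for Col9a1 and Myf5 lies inside the gene span used to place the window, read 5′ to 3′ on the gene's strand, with each CpG dinucleotide, the site of DNA methylation, in capitals. The first 3 carried both marks: Acan encodes aggrecan, the main cartilage proteoglycan, Hoxd13 is a limb patterning factor and Cdkn2a encodes a cell cycle inhibitor. Col9a1, a type IX collagen chain, had H3K4me3 only, the muscle determination factor Myf5 had H3K27me3 only, and the hypertrophic collagen gene Col10a1 had neither.
Acan, chr7:79052976-79053225, plus strand: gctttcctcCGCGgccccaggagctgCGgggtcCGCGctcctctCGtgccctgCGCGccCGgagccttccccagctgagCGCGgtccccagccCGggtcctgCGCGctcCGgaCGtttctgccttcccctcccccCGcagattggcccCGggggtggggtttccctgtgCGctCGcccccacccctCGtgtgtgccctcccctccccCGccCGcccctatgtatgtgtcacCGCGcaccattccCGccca
Hoxd13, chr2:74667975-74668224, plus strand: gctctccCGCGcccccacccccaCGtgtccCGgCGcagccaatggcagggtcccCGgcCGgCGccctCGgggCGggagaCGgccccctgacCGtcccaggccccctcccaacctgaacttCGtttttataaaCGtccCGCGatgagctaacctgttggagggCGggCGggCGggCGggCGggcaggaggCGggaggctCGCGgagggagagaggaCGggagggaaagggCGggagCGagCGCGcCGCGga
Cdkn2a, chr4:89294620-89294869, minus strand: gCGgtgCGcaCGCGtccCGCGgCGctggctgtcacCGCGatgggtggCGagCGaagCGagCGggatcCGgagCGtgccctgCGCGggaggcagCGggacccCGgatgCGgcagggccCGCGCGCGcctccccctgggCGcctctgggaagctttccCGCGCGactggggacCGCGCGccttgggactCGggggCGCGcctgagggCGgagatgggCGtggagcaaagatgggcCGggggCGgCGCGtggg
Col9a1, chr1:24177360-24177609, plus strand: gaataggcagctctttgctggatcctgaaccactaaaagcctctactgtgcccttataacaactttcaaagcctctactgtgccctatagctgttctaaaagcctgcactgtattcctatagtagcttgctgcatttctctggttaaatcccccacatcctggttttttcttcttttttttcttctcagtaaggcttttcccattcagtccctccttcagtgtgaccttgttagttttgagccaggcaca
Myf5, chr10:107486135-107486384, minus strand: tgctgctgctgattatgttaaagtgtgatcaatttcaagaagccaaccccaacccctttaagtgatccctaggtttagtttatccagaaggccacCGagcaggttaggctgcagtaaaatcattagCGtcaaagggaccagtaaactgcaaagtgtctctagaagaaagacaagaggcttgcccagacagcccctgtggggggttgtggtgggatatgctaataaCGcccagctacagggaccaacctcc
Col10a1, chr10:34389731-34389980, plus strand: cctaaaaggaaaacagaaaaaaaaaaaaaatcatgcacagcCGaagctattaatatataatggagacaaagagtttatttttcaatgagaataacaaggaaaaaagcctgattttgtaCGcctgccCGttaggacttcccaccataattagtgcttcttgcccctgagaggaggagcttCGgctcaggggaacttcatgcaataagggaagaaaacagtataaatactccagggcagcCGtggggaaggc
These stretches hold 26 CpG for Acan, 31 for Hoxd13 and 40 for Cdkn2a, against 0 for Col9a1, 3 for Myf5 and 5 for Col10a1. Col9a1 thus carried H3K4me3 with no CpG in this stretch, unlike the typical promoter of its class.

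The classes differed in their CpG content around the start, which is described here with no test. In 300 bases (250 before the start and 50 after), promoters with both marks held a median of 20 CpG and those with H3K4me3 only 21, whereas promoters with H3K27me3 only held 8 and those with neither 3. The ratio of observed to expected CpG had a median of 0.701 with both marks, 0.787 with H3K4me3 only, 0.351 with H3K27me3 only and 0.176 with neither. A ratio of at least 0.6, a usual mark of CpG islands, was reached by 63.7% of promoters with both marks, 76.3% with H3K4me3 only, 23.7% with H3K27me3 only and 6.67% with neither. Sequences were at hand for 16457 genes, 2183 of them with both marks and 354 with H3K27me3 only. The class could come from either gene end, so some of these sequences are not from the end that carried the marks. At the annotated 5′ end, 2011 of the 2183 kept both marks and 264 of the 354 kept H3K27me3 only. So did 8120 of 8327 genes with H3K4me3 only for their class.

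The libraries of the 2 marks differed in how much of the genome they covered and where. H3K4me3 lists held 28956, 32033 and 23618 autosomal regions in replicates 1, 2 and 7, and H3K27me3 lists held 20347, 14794 and 17644 in replicates 2, 6 and 8. H3K4me3 regions covered 38.7 ± 8.47 Mb and H3K27me3 regions 63.8 ± 9.47 Mb (SD, n = 3 each). The share of regions within 2 kb of a gene end was 50.6% ± 5.91 for H3K4me3 and 25.6% ± 3.22 for H3K27me3. Both differences separated all 3 libraries of each mark, with an exact two-sided permutation p of 0.1, the smallest that 3 against 3 allows, and an adjusted p of 0.1 over 4 values. Shared over combined bases (the Jaccard index) ran from 0.591 to 0.727 between H3K4me3 libraries, from 0.414 to 0.455 between H3K27me3 libraries and from 0.0629 to 0.114 between marks. H3K4me3 replicate 7, with the fewest regions, marked 13342 genes, against 13759 and 13895 in replicates 1 and 2. The lists hold no read counts, so the depth behind a region is unknown.

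Marker genes of cartilage carried active marks. All 14 chondrocyte markers carried H3K4me3, against 64% of all genes, and 5 of them had H3K27me3 as well, against 14.2%. H3K27ac, an acetylation of active promoters, lay in all 3 H3K27ac libraries at 13 of them. Over whole classes it did so at 96.3% of promoters with H3K4me3 only and 59.6% with both marks. The exception was Col2a1, where H3K4me3 covered only 5%, 10% and 10% of the window. Over gene bodies, H3K36me3, which follows transcription, covered a median of 81.2% of these 14 genes. The 4 markers of perichondrium and tendon, tissues that border cartilage, had H3K4me3 only, H3K27ac in 3 libraries and a median H3K36me3 coverage of 86.1%. The longer lists of both tissues also hold genes with neither mark. H3K27ac in all 3 libraries was seen at 0 of 5 muscle, 1 of 5 endothelial, 2 of 4 blood, 1 of 5 epidermal and 0 of 5 neural markers. The longer lists of these tissues were mixed. Among their genes with both marks, H3K27ac lay in all 3 libraries at 8 of 12 epidermal and 9 of 30 neural genes. For endothelial, muscle and blood genes with both marks the counts were 3 of 7, 0 of 5 and 0 of 1. Their H3K4me3 only members (Krt10, Fli1, Cd4, Klf1 and Spi1) all had H3K27ac in all 3 libraries. What share of the sorted cells perichondrium makes up was not tested, and a mark in few cells and a weak mark in all cannot be told apart.

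H3K27me3 at promoters mostly came together with H3K4me3. H3K4me3 lay in all 3 libraries at an end of 13219 genes (64%), and 22.2% of them had H3K27me3 at the same end, whereas 6.33% of the genes without H3K4me3 had H3K27me3. H3K27me3 lay at an end of 3625 genes (17.5%), which are the 2938 with both marks, the 471 with H3K27me3 only and 216 H3K4me3 only genes with H3K27me3 at their other end. Of the genes with both marks or H3K27me3 only, 86.2% carried both. The share with both marks among H3K4me3 promoters ran from 18.1% on chromosome 13 to 29.3% on chromosome 15.

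The 2 marks mostly lay over the same bases. In promoters with both, H3K4me3 regions took a median of 43.3% of the window (quartiles 32.3% and 58.2%) and H3K27me3 regions 92.6% (quartiles 69.6% and 100%). At least 200 bp lay in both marks at once in 2697 of the 2938 (91.8%). Where the 3 libraries of each mark were intersected, a median of 100% of the H3K4me3 bases of a window lay inside H3K27me3. H3K27me3 filled the whole window in all 3 libraries at 1053 promoters (35.8%) and covered under 50% of it, on average, at 365 (12.4%). Around the annotated 5′ end of the 2011 genes with both marks there, H3K4me3 coverage was highest 300 bp downstream, at 82.8% of genes, and H3K27me3 coverage 900 bp downstream, at 83.4%. At 9.9 kb upstream H3K27me3 still covered 9.05% of these genes and H3K4me3 3%.

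**Figure D1:**
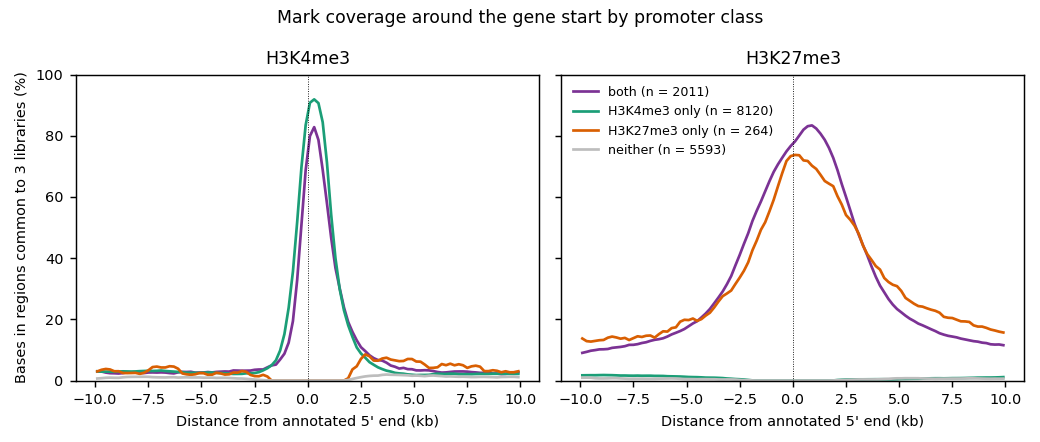
Percent of genes whose bases lie in regions common to the 3 libraries of a mark (y axis), by distance from the annotated 5′ end in kb (x axis), for H3K4me3 on the left and H3K27me3 on the right. Lines are the 4 promoter classes among genes placed in the same class at that end. The H3K4me3 peak of promoters with both marks, at 82.8%, stands below the 91.9% of promoters with H3K4me3 only, and their H3K27me3 peak is far broader than the H3K4me3 one.

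Region widths also differed by class. The median H3K4me3 region at promoters with both marks was 1800, 2000 and 1400 bp in replicates 1, 2 and 7, against 2200, 2400 and 1800 bp at promoters with H3K4me3 only. The median H3K27me3 region at promoters with both marks was 7200, 6400 and 6400 bp in replicates 2, 6 and 8, against 6400, 5600 and 5600 bp at promoters with H3K27me3 only. So, where both marks lay, H3K4me3 regions were narrower (a difference of -400 bp) and H3K27me3 regions wider (a difference of 800 bp) in 3 of 3 libraries each, with an exact two-sided sign-flip p of 0.25, the smallest that 3 libraries allow. Each of these differences is 2 steps or 1 step of the grid on which the regions end, 200 bp for H3K4me3 and 800 bp for H3K27me3.

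Most cartilage genes had H3K4me3 only, the largest class among all genes too, yet several of the best known ones carried both marks. Of 31 genes of cartilage matrix and early chondrocytes, 10 had both marks, 18 H3K4me3 only, 0 H3K27me3 only and 3 neither (Epyc, Prg4 and Ucma). All genes gave 14.2% both, 49.8% H3K4me3 only, 2.28% H3K27me3 only and 33.8% neither. The H3K4me3 only members include Chad (chondroadherin), Chst11 (a chondroitin sulfotransferase), Cnmd (chondromodulin), and the collagen chain genes Col11a1, Col11a2 and Col9a1. All 18 had H3K27ac in all 3 libraries, as did 96.3% of all promoters with H3K4me3 only. H3K36me3 covered a median of 83.8% of their gene bodies, against a median of 72.4% over that class. Of the 3 genes with neither mark, Ucma had H3K27ac in 3 libraries, Epyc in 1 and Prg4 in 0. H3K36me3 covered 66.9% of the body of Epyc, 64.6% of Prg4 and 16.2% of Ucma, against a median of 0% over all genes with neither mark.

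Sox9, the master regulator of the chondrocyte fate, lay wholly in H3K4me3, with 100% of its window covered in all 3 H3K4me3 libraries and 0% in all 3 H3K27me3 libraries. For Col9a1, H3K4me3 covered 59.7%, 49.7% and 49.7% of the window in replicates 1, 2 and 7 and H3K27me3 0% in all 3 libraries. The promoter of Hapln1, which encodes the link protein that ties aggrecan to hyaluronan, had 100%, 100% and 95% in H3K4me3 and 0% in H3K27me3. These 3 genes, like the matrilin gene Matn1 with 75%, 80% and 59.6% in H3K4me3, had no H3K27me3 region in the window in any library.

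Acan lay in both marks almost over its whole window. H3K4me3 covered 75.6%, 80.6% and 80.6% of it (79.0% ± 2.89, SD, n = 3) and H3K27me3 100%, 100% and 99.4% (99.8% ± 0.361). The same window had H3K27ac in 3 of 3 libraries, and H3K36me3 covered 89.5% ± 7.58 of the gene body. Comp, which encodes cartilage oligomeric matrix protein, had 93.7%, 58.7% and 73.7% in H3K4me3, 100%, 100% and 68.7% in H3K27me3, and H3K27ac in 3 libraries. H3K27me3 over nearly the whole window thus lay beside H3K27ac and a gene body in H3K36me3 at Acan.

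The other members with both marks are named after their values were seen. Fgfr3, a receptor that restrains chondrocyte division, had 63.1% of its window in H3K4me3 in all 3 libraries and 33.1%, 73.1% and 73.1% in H3K27me3. Pthlh encodes PTHrP, the ligand that delays hypertrophy, and had 45%, 64.7% and 54.7% in H3K4me3 and 90.3%, 70.3% and 70.3% in H3K27me3. At Nkx3-2, a factor that holds back hypertrophy, H3K4me3 covered 100%, 100% and 72% and H3K27me3 100% in all 3 libraries. Papss2, Snorc and Susd5 complete the group with Sox6 and Col2a1. Of the 10 members, 9 had H3K27ac in all 3 libraries, against 59.6% of all promoters with both marks. H3K36me3 covered a median of 77.7% of their bodies, against a median of 8.32% over all genes with both marks, and 2 of the 10 had the whole window in H3K27me3 in every library. Genes were listed here for their role in cartilage and with earlier results known, so these counts are a description.

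The partners of Sox9 sat near the border of the classes. Sox6 counted as both with 75.6%, 55.6% and 55.6% of its window in H3K4me3 and 10.6%, 30.6% and 10.6% in H3K27me3. Sox5 counted as H3K4me3 only with 72.9%, 70% and 70% in H3K4me3 and 47.1%, 40% and 0% in H3K27me3, so replicate 8 alone kept it out of the both class. With presence in at least 2 of 3 libraries Sox5 had both marks, and with a window of 1 kb Sox6 had H3K4me3 only. Among all 2938 promoters with both marks, 77 had under 10% of the window in H3K4me3 in at least 1 library and 30 in H3K27me3.

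Col2a1, the gene of the main cartilage collagen, stood apart from the rest of its list. H3K4me3 covered 5%, 10% and 10% of its window, H3K27me3 100% in all 3 libraries and H3K9me3, a heterochromatin mark, 100% on average with regions in 3 of 3. H3K27ac and H3K9ac had no region there in any library, while H3K36me3 covered 79.2% ± 10.4 of the gene body. In HC the same window had 79.4% in H3K4me3 and 100% in H3K27me3, as means of 2 libraries. With at least 1000 bp required, Col2a1 had H3K27me3 only. The PC carry a transgene with the Col2a1 promoter, and in these lists regions from the transgene and from the native promoter cannot be told apart.

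**Figure D2:**
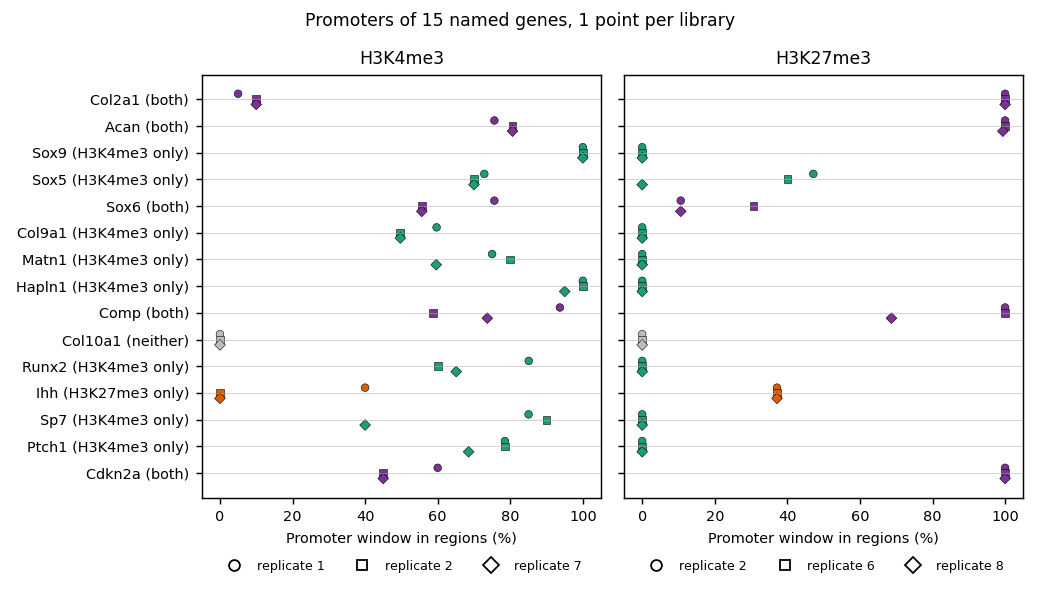
Percent of the promoter window in regions (x axis) for 15 genes (rows, with the class in brackets), in the 3 H3K4me3 libraries on the left and the 3 H3K27me3 libraries on the right, with 1 point per library and 1 marker shape per replicate. H3K27me3 is at 100% for Col2a1 and Cdkn2a and at 0% for Sox9, while Sox5 spreads from 0% to 47.1%.

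Genes of the later, hypertrophic stage were spread over all classes. Of 25, 9 had both marks, 7 H3K4me3 only, 1 H3K27me3 only (Ihh) and 8 neither, where all genes gave 14.2% both, 49.8% H3K4me3 only, 2.28% H3K27me3 only and 33.8% neither. The 9 include Alpl (alkaline phosphatase) and Phospho1, enzymes of mineralization, and Dlx5, Dlx6, Foxa2 and Foxa3, factors of late chondrocytes. Foxa2 had 75%, 85% and 55% of its window in H3K4me3 and 100% in all 3 H3K27me3 libraries. In PC, 7 of the 9 had H3K27ac in all 3 libraries, against 59.6% of all promoters with both marks. All 9 had both marks in both HC libraries of each mark, as did 90.8% of the class. Runx2, a driver of hypertrophy, had H3K4me3 only, with 85.1%, 60.1% and 65.1% of the window, as did Sp7, a bone factor, with 85%, 90% and 40%.

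Col10a1, the marker collagen of hypertrophy, had 0% of its window in both marks in all 6 PC libraries. In HC the same window had 5% in H3K4me3, with a region in 1 of 2 libraries, and 99.8% in H3K27me3, with regions in both. The HC carry a Col10a1-driven transgene, and its promoter and the native one cannot be told apart in these lists. Mmp13, the collagenase of late hypertrophy, also had 0% in all 6 PC libraries.

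The Hedgehog pathway runs from ligands through receptors to Gli factors. Among 14 genes, 3 had both marks (Shh, Dhh and Hhip), 10 H3K4me3 only, 1 H3K27me3 only (Ihh) and 0 neither. The share with both was 21.4%, where all genes gave 14.2% both, 49.8% H3K4me3 only, 2.28% H3K27me3 only and 33.8% neither. Of all genes with H3K4me3, a set that leaves out Ihh, 22.2% carried both marks. Shh and Dhh are ligands and Hhip binds and restrains them, and the 10 with H3K4me3 only include receptors and coreceptors (Boc, Cdon, Gas1, Ptch1), Smo, Sufu and the Gli1, Gli2 and Gli3 factors. Ptch1, the receptor and a target of the pathway, had 78.5%, 78.5% and 68.5% of its window in H3K4me3 and 0% in all 3 H3K27me3 libraries. Shh had 52.5%, 47.5% and 22.5% in H3K4me3, 100% in all 3 H3K27me3 libraries and no H3K27ac. Ihh, the ligand of prehypertrophic cells, had 37.1% of the window in each H3K27me3 library and 40%, 0% and 0% in H3K4me3. That window lies at the 3′ end of the gene, and at its annotated 5′ end Ihh had neither mark.

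Hox genes, which set positional identity, nearly all carried both marks. Of 39, 37 had both, with Hoxa4 in H3K4me3 only, Hoxd12 in H3K27me3 only and 0 in neither. Among all genes, the shares were 14.2% both, 49.8% H3K4me3 only, 2.28% H3K27me3 only and 33.8% neither. The median member had 82.7% of its window in H3K4me3, against 36.7% for all genes, and 100% in H3K27me3, against 0% for all genes. At Hoxd13, whose promoter is printed above, H3K4me3 covered 70.6%, 75% and 35% and H3K27me3 100% in all 3 libraries. Hoxd12 had 75%, 95% and 4.7% in H3K4me3, so replicate 7 alone placed it outside the both class. Hoxa4 had 100%, 82.4% and 55% in H3K4me3 and 0% in every H3K27me3 library.

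Hox genes also shared their Polycomb regions, so they are not independent members. After intersection of the 3 libraries, 1 H3K27me3 region of 111.2 kb (chr15:102902401-103013600, build mm10) held 7 promoters with both marks, those of Hoxc13, Hoxc12, Hoxc11, Hoxc10, Hoxc9, Hoxc8 and Hoxc6. Regions of 74.4 kb in HoxD, 72 kb in HoxA and 59.2 kb in HoxB held 6 each. Across the genome 652 promoters with both marks shared a region with another, and 2908 lay in 2559 distinct regions. H3K27ac lay in all 3 libraries at 33 of the 37 Hox genes with both marks, against 59.6% of all promoters with both marks. The whole window was in H3K27me3 in every library at 27 of the 37, against 35.8% of that class.

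Families of developmental transcription factors mostly carried both marks. All 11 Dlx, Msx and Emx homeobox genes, 30 of 34 neural lineage factors, 23 of 26 genes of a list of Nkx, Irx and related homeobox factors, 10 of 12 LIM homeobox genes, 7 of 9 Pax genes, 11 of 15 T-box genes, 26 of 41 forkhead genes and 3 of 5 Gata genes did so, where all genes gave 14.2%. With at least 1000 bp required for a mark the Pax count was 3 of 9, and with a window of 5 kb the Gata count was 5 of 5. Neurod1, a neuronal differentiation factor, had 29.1%, 39.1% and 10% of its window in H3K4me3, 100% in all 3 H3K27me3 libraries and no H3K27ac. Of the 7 Pax genes with both marks, 2 had H3K27ac in all 3 libraries, against 59.6% of all promoters with both marks. These were Pax1 and Pax9, which act in the sclerotome that gives rise to axial cartilage. Pax1 had 95%, 100% and 75% in H3K4me3 and 100% in all 3 H3K27me3 libraries, with 68.3% of its body in H3K36me3.

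The remaining members of these lists are few. Those with H3K27me3 only include Pax4 and Pax5, Lhx3 and Lhx4, Gata3 and Gata4, Six3, Tbx5, Evx2 and Neurog3. Several of these held H3K4me3 in replicates 1 and 2 and none in replicate 7, as Gata3 did with 23.8%, 48.8% and 0% and Neurog3 with 15%, 35% and 0%. Over all genes, 259 of the 471 with H3K27me3 only had H3K4me3 in 1 or 2 libraries, and 212 had none. Without H3K4me3 replicate 7 the class held 314 genes. Six4 and Six5, Tbx6 and Tbx10 had H3K4me3 only, and Tbx19 and Neurod4 had neither mark.

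Sox genes divided evenly, with 9 of 18 in both marks, 8 in H3K4me3 only, 0 in H3K27me3 only and Sox15 in neither. Sox1, Sox2, Sox10, Sox14, Sox17, Sox18, Sox21 and Sox7 joined Sox6 in the both class, and Sox4, Sox8, Sox11, Sox12, Sox13 and Sox30 joined Sox5 and Sox9 in H3K4me3 only. Limb patterning factors had 16 of 19 in both marks, 2 in H3K4me3 only (Gli3 and Meis1), 1 in H3K27me3 only (Tbx5) and 0 in neither. All genes, for both lists, gave 14.2% both, 49.8% H3K4me3 only, 2.28% H3K27me3 only and 33.8% neither. H3K27ac lay in all 3 libraries at 14 of the 16 limb factors with both marks, with Shh at 0 libraries. Of the 30 neural factors with both marks, 9 had it in all 3 and another 9 in none. Over the whole class with both marks, 59.6% had it in all 3 and 14.5% in none. Tbx5, the forelimb factor, had 10%, 5% and 0% of its window in H3K4me3 and 100% in all 3 H3K27me3 libraries.

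Gene lists of other tissues differed from each other. Both marks lay at 70.6% of epidermal, 46.7% of endothelial, 33.3% of muscle and 6.67% of blood genes. For perichondrium, tendon and joint the share was 31.6%. The shares over all genes were 14.2% both, 49.8% H3K4me3 only, 2.28% H3K27me3 only and 33.8% neither. Of 15 muscle genes, 5 had both marks, 0 H3K4me3 only, 4 H3K27me3 only (Ckm, Cdh15, Myf5 and Myf6) and 6 neither. Myod1, the muscle determination factor with both marks, had 25%, 35% and 20% in H3K4me3 and 100% in all 3 H3K27me3 libraries, with H3K27ac in 0. Of 17 epidermal genes 12 had both, 1 (Krt10) H3K4me3 only, 0 H3K27me3 only and 4 neither. Of 15 endothelial genes 7 had both, 1 (Fli1) H3K4me3 only, 0 H3K27me3 only and 7 neither, and of 15 blood genes 1 (Ikzf1) had both, 3 (Cd4, Klf1 and Spi1) H3K4me3 only, 0 H3K27me3 only and 11 neither. With at least 1000 bp required, both marks were counted at 0 muscle and 2 endothelial genes, and with a window of 5 kb at 4 blood genes. The 19 genes of perichondrium, tendon and joint had 6 in both, 11 in H3K4me3 only, 0 in H3K27me3 only and 2 in neither. All 17 with H3K4me3 had H3K27ac in 3 libraries, as did 96.3% of the whole H3K4me3 only class and 59.6% of the both class.

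Secreted ligands and ion channels followed the developmental factors to different degrees. Both marks lay at 78.9% of Wnt, 55% of FGF and 35.3% of BMP and GDF ligands, and at 75.8% of voltage-gated potassium channels. For all genes the shares were 14.2% both, 49.8% H3K4me3 only, 2.28% H3K27me3 only and 33.8% neither. Of 19 Wnt ligands, 15 had both marks, 2 H3K4me3 only (Wnt5a and Wnt5b, which act in growth plate chondrocytes), 2 H3K27me3 only (Wnt8a and Wnt8b) and 0 neither. Wnt5a had 63.6%, 58.6% and 58.6% of its window in H3K4me3 and 36.4%, 0% and 36.4% in H3K27me3. Of 20 FGF ligands, 11 had both, 4 H3K4me3 only (Fgf7, Fgf10, Fgf12 and Fgf18), 1 H3K27me3 only (Fgf21) and 4 neither, and with at least 1000 bp required 7 had both. Fgf18, which acts on Fgfr3 in cartilage, had 85%, 80% and 70% in H3K4me3 and 0%, 40% and 0% in H3K27me3. Of 17 BMP and GDF ligands 6 had both, 8 H3K4me3 only, 0 H3K27me3 only and 3 neither. Voltage-gated potassium channels, known from excitable cells, had 25 of 33 in both marks, 3 in H3K4me3 only, 1 (Kcng4) in H3K27me3 only and 4 in neither.

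Genes that every dividing cell uses mostly carried H3K4me3 without H3K27me3. Of 30 cell cycle genes 0 had both marks and 29 had H3K4me3 only, among them Aurka, Aurkb, Bub1, Bub1b, Ccna2 and Ccnb1, and Ccnd3 had neither. Of 80 ribosomal protein genes 1 had both, 76 H3K4me3 only, 0 H3K27me3 only and 3 neither, and of 21 genes of glycolysis and hypoxia 3 (Pkm, Egln3 and Epas1) had both, 15 H3K4me3 only, 0 H3K27me3 only and 3 neither. H3K27ac lay in all 3 libraries at all of the 29, 76 and 15 genes with H3K4me3 only, close to the 96.3% of the whole class. Outside these groups, solute carriers had 64 of 333 in both marks (19.2%), 153 in H3K4me3 only, 18 in H3K27me3 only and 98 in neither. Of 388 Zfp zinc finger genes 26 had both marks (6.70%), 303 H3K4me3 only, 6 H3K27me3 only and 53 neither. Over all genes the shares were 14.2% both, 49.8% H3K4me3 only, 2.28% H3K27me3 only and 33.8% neither. With both marks, the Zfp count was 15 with at least 1000 bp required and 66 with a window of 5 kb, and the ribosomal count was 0 and 7 under the same settings.

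The inhibitors that stop the cycle form a short list, described with no test. Of 7 cyclin-dependent kinase inhibitor genes 4 had both marks (Cdkn2a, Cdkn2b, Cdkn2c and Cdkn1c), 2 H3K4me3 only (Cdkn1b and Cdkn2d), 0 H3K27me3 only and 1 neither (Cdkn1a). Among all genes, 14.2% had both, 49.8% H3K4me3 only, 2.28% H3K27me3 only and 33.8% neither. Cdkn1a had H3K4me3 common to the 3 libraries inside the gene, over 2 kb from both ends. Cdkn2a, a classic Polycomb target, had 60%, 45% and 45% of its window in H3K4me3 and 100% in all 3 H3K27me3 libraries, in regions of 50.4 kb on average. Cdkn2b, its neighbour in the same region, had 30%, 35% and 20% in H3K4me3 and 100% in all 3 H3K27me3 libraries. H3K36me3 covered 0% of both genes. Cdkn1c, an inhibitor known from chondrocytes that leave the cycle, had 58.6%, 68.6% and 58.6% in H3K4me3 and 63.6% in each H3K27me3 library, with H3K27ac in 3.

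Genes of the Polycomb and trithorax complexes carried both marks at a share near that of all genes. Of 39, 7 had both marks (17.9%, against 14.2% of all genes), 29 H3K4me3 only, 0 H3K27me3 only and 3 neither (Ash2l, Cbx7 and Dpy30). Ezh2, the enzyme that writes H3K27me3, had 73.3%, 83.3% and 68.3% of its window in H3K4me3 and 0% in all 3 H3K27me3 libraries. The 7 with both marks include Bmi1, Cbx8, Pcgf1 and Pcgf5 of Polycomb repressive complex 1, Phf19, an accessory subunit of complex 2, and Kdm6b, a demethylase of H3K27me3. Cbx8 had 95%, 90% and 77.8% in H3K4me3 and 100% in all 3 H3K27me3 libraries. All 7 had H3K27ac in 3 libraries, against 59.6% of all promoters with both marks.

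**Figure D3:**
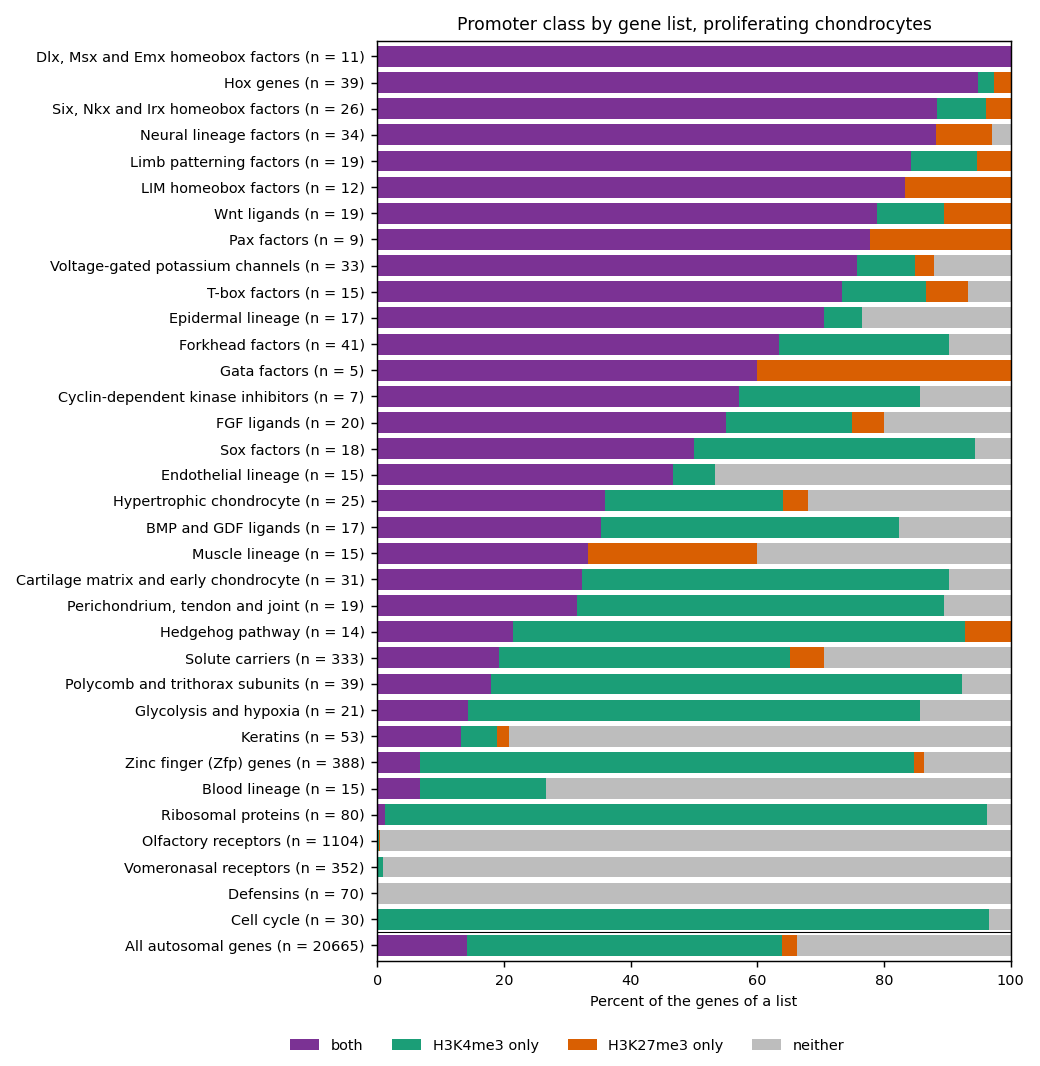
Percent of the genes of each list in the 4 promoter classes (x axis, stacked bars), for 34 lists sorted from most to fewest with both marks (rows, with the number of genes), and all 20665 autosomal genes in the bottom bar. Developmental regulators fill the top rows with both marks, cell cycle and ribosomal protein genes are almost wholly H3K4me3 only, and sensory receptors are almost wholly without marks.

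The neither class was led by gene families of other tissues. Olfactory receptors had 1 gene (Olfr94) in both marks, 1 in H3K4me3 only, 2 in H3K27me3 only and 1100 of 1104 in neither. Vomeronasal receptors had 349 of 352 in neither, defensins 70 of 70 and keratins 42 of 53. Among all genes, 33.8% had neither mark, 14.2% both, 49.8% H3K4me3 only and 2.28% H3K27me3 only. Of the 6975 genes, 5687 had no region of either mark at either end in any library. In 689, however, H3K4me3 common to the 3 libraries lay inside the gene over 2 kb from both ends, among them Ash2l, Ccnd3, Cdkn1a, Epyc, Hif1a, Ldha and Pth1r. A transcript start was listed for 5593 of the 6975, and 418 of them had H3K4me3 at one. Whether the H3K4me3 inside a gene marks a start was not tested for the 689, and the neither class covers the gene ends alone.

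Other marks, which played no part in the sorting, followed the classes. H3K27ac lay at 78.6%, 70.1% and 70.3% of promoters with both marks in its 3 libraries, against 98.4%, 97.4% and 97.7% of promoters with H3K4me3 only. The difference was -24.9 ± 4.32 percentage points (SD, n = 3 libraries), lower in 3 of 3, and that for H3K9ac, another acetylation of active promoters, was -24.8 ± 6.56, lower in 3 of 3. The share with H3K27ac in all 3 libraries was 59.6% of promoters with both marks, and 14.5% had it in none. So most promoters with both marks were acetylated in every library and a smaller group in none.

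H3K36me3, measured as coverage of the gene body and so not comparable in points with acetylation, also differed between the classes. It covered 18.5%, 19.8% and 25.3% of the body of genes with both marks on average, against 67.8%, 55.7% and 64.8% of genes with H3K4me3 only, a difference of -41.5 ± 6.98 points, lower in 3 of 3 libraries. H3K9me3 ran the other way, at 44.8%, 47.7% and 75.8% of promoters with both marks in replicates 2, 3 and 6, against 4.08%, 4.35% and 21.8% of those with H3K4me3 only. That difference was 46.0 ± 7.0 points, higher in 3 of 3 libraries, and replicate 6 was the highest in both classes. Each of the 8 differences tested between classes had an exact two-sided sign-flip p of 0.25, the smallest that 3 libraries allow, and an adjusted p of 0.25.

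Promoters with H3K27me3 only had active marks at low shares, higher than those with neither in 3 of 3 libraries of each mark. H3K9ac lay at 10.1% ± 3.19 of them, against 5.08% ± 2.29 of promoters with neither, a difference of 5.04 ± 1.02 points (SD, n = 3). H3K27ac lay at 11.7% ± 3.21 of them, against 7.93% ± 1.59 of promoters with neither, and H3K36me3 covered 10.1% ± 2.09 of their gene bodies, against 8.99% ± 1.34. H3K9me3 lay at 56.2% ± 11.0 of promoters with H3K27me3 only, against 21.8% ± 3.61 of promoters with neither, a difference of 34.4 ± 7.55 points (SD, n = 3), higher in 3 of 3 libraries. With at least 1000 bp required for a mark, the H3K36me3 difference turned round to -1.55 points.

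**Figure D4:**
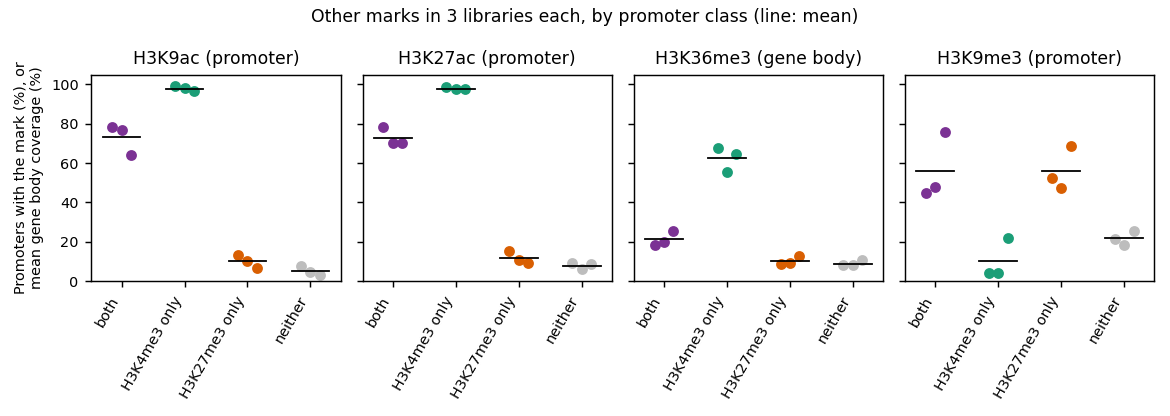
Percent of promoters with H3K9ac, H3K27ac or H3K9me3, and mean percent of the gene body in H3K36me3 (y axis), by promoter class (x axis), with 1 point per library and a line at the mean of 3. Acetylation is near 98% with H3K4me3 only and near 73.0% with both marks, and the H3K9me3 points of promoters with both marks lie at 44.8%, 47.7% and 75.8%.

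Within the both class, acetylation and H3K36me3 were lower the more of the window H3K27me3 filled. H3K27ac lay at 94.3% ± 1.89 of the 53 promoters with under 25% of the window in H3K27me3, 90.1% ± 1.40 of 312 with 25 to under 50%, 81.5% ± 4.52 of 505 with 50 to under 75%, 72.9% ± 5.53 of 1015 with 75 to under 100% and 62.8% ± 5.69 of 1053 with 100% (SD, n = 3 libraries each). H3K36me3 over the gene body stood at 61.9% ± 3.07, 42.2% ± 5.15, 26.7% ± 4.32, 18.6% ± 3.71 and 12.7% ± 3.49 in the same bins. The order of the bins was the same in each of the 3 libraries of either mark. It is described with no test, since promoters are not replicates.

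**Figure D5:**
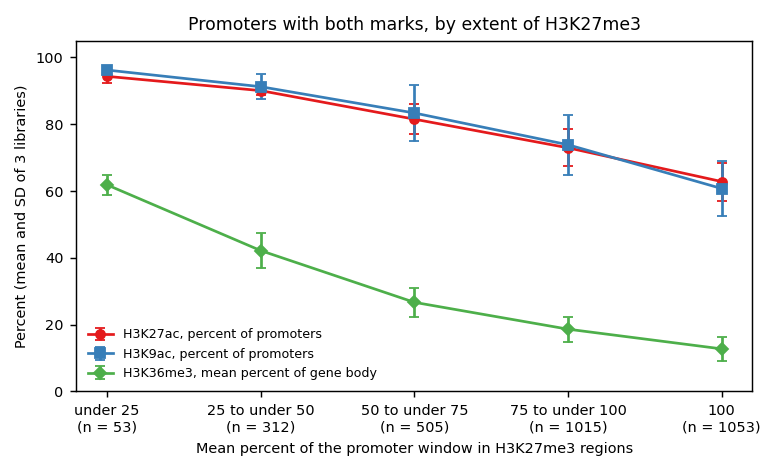
Promoters with both marks by the mean percent of the window in H3K27me3 regions (x axis, with the number of promoters), with the percent that carry H3K27ac or H3K9ac and the mean percent of the gene body in H3K36me3 (y axis, mean and SD of 3 libraries). H3K27ac stands at 94.3% in the lowest bin and 62.8% in the highest, and H3K36me3 at 61.9% and 12.7%.

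Most of the widest regions at gene ends with both marks lay in Hox clusters, with Gm2102 and Ebf3 as the exceptions among those named. A window is a gene end that held both marks, not always the 5′ end. At Hoxc4 and Hoxd4 below it is the 3′ end, and their annotated 5′ end had H3K27me3 only. The 5 widest by H3K27me3, with 1 gene taken per region, were at Hoxc10 with a mean of 133.6 kb, Gm2102 with 123 kb, Hoxc4 with 104.0 kb, Hoxd10 with 102 kb and Hoxd4 with 91.2 kb. The 5 widest by H3K4me3 were at Hoxa10 with 29.7 kb, Hoxa7 with 25.9 kb, Hoxa5 with 19.3 kb, Hoxa3 with 19.3 kb and Ebf3, a developmental transcription factor, with 14.3 kb. Hoxa5 had 100%, 100% and 95.3% of its window in H3K4me3 and 15.3%, 100% and 24.6% in H3K27me3, and 92.4% of its body in H3K36me3. In the H3K27me3 only class the widest regions lay at Evx2 with 102 kb, Six3 with 70.4 kb, Tbx5 with 59.2 kb, and Gata4 and Tfap2a with 52.8 kb each. All 5 of these genes encode transcription factors of development.

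Nearly all promoters with both marks in PC had both in HC too. Of the 2938, 2669 (90.8%) carried both marks in both HC libraries of each mark, H3K4me3 lay in both at 98.0% and H3K27me3 at 92.7%. No H3K27me3 region lay in the window in either HC library at 87, among them Papss2, the enzyme of sulfate donor synthesis, named after its values were seen. Of the 10281 genes with H3K4me3 only in PC, 466 (4.53%) had H3K27me3 in both HC libraries. Of the 471 with H3K27me3 only, 91 (19.3%) had H3K4me3 in both HC libraries, and of the 6975 with neither, 9 had both marks. The PC classes required 3 libraries and the HC values 2, so these shares are given with no test.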

How the data were processed

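Chromatin immunoprecipitation had been run on sorted chondrocytes with low-input kits, per the labels. Region coordinates, as deposited by the authors, came as a list for each library and an intersected list for each mark, with no score, height or count, so depth is unknown. FastQC, Picard and mm10 are named in the submitters' processing notes. For the aligner and region caller, nothing is stated in the sources used here, and the IgG samples were not analysed here.

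Genes were the RefSeq protein-coding genes of GRCm38.p6, the assembly of mm10, on 19 autosomes. Both ends were tested, because strand was at hand for 16457 genes. Classes, coverage and the exact permutation tests were computed in Python 3.11.15 with numpy 2.4.6 and pandas 2.3.3, and figures drawn with matplotlib 3.10.9. On simulated data, 2000 overlaps, 2000 planted genes and 3 p-values gave 0 errors.

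The members and the 34 gene lists were chosen with earlier results of these data known. Named genes were 15 fixed genes, the smallest class of each list where it held 5 genes or fewer, up to 6 examples of its largest class, and the 5 widest regions of each kind. Other names were chosen after their values were seen. Alternatives covered the overlap, the window, the libraries required, the gene end and each library left out. Some members of the lists are counted but not reported here by name.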

Additional observations from a re-analysis of the deposited data

How the results depend on the processing

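The share of H3K4me3 promoters with H3K27me3, 22.2% as reported, was 18.1% with at least 1000 bp required, 19.9% with a 1 kb window, 26.0% with a 5 kb window, 26.6% with presence in at least 2 of 3 libraries, 21.4% with regions of at least 2 grid steps, 19.7% at the annotated 5′ end and 20.4% with both marks on the same bases. With 3 alternatives chosen after seeing the data, it was 25.9% with H3K27me3 in at least 2 libraries, 19.9% at any annotated transcript start and 23.1% with 1 gene per stretch of overlapping windows. The share of H3K27me3 promoters with H3K4me3, 86.2% as reported, was 68.5% with 1000 bp, 82.1% and 89.2% with 1 kb and 5 kb windows, 87.9% with 2 of 3 libraries, 83.0% with H3K27me3 in at least 2 and 88.1% at any transcript start. The count with H3K27me3 only, 471 as reported, was 970 with 1000 bp, of which 380 were among the 471, and 284 at any transcript start. The H3K36me3 difference between H3K27me3 only and neither was -1.55 points with 1000 bp. The cause was not tested.

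With each library left out in turn, both marks were counted at 2940 to 3212 genes, H3K4me3 only at 10007 to 10516, H3K27me3 only at 314 to 580 and neither at 6724 to 6966. The shares ran from 22.2% to 24.3% and from 84.7% to 90.8%. Requiring 2 libraries in place of 3 can only add marked promoters. At the annotated 5′ end 2011 of the 2183 genes with both marks and a known strand kept them, as did 17 of 21 such Hox genes, and the other 4 had H3K27me3 only there. No paired analysis was possible because the H3K4me3 and H3K27me3 libraries share only the replicate number 2. Unknown depth means that a region missing from a list was not called, not that the mark was absent.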
